A study of Mus musculus with 10 samples.

Results

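The transcription factors Prdm1, Irf4, Xbp1, Pax5, Bach2, Bcl6, Irf8, Spib, Ebf1 and Pou2af1, which separate B cells from plasma cells, were followed in mouse splenic B cells that secreted the cytokine IL-10, in B cells that did not, and in B cells that had not been separated. Every probe of the deposited intensity table whose gene name matched a symbol of this set, ignoring case, was taken. This gave 12 probes for 10 genes among 45281 probes in all, with 2 probes each for Prdm1 and Spib and 1 for each other gene. A probe was tested where 2 or more arrays gave it a detection p under 0.01, and 11 of the 12 probes met this, as did 16496 of all probes. All 10 genes were therefore among the 11185 genes tested. Pax5 and the second Spib probe met the requirement through 2 arrays each.

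RNA was hybridised to Illumina mouse whole-genome beadchips, 1 array per sample, on 2 slides. All samples were spleen B cells of C57BL/6 mice, a common inbred strain, with no engineered allele named in the labels. The labels give 5 arrays of cells sorted as IL-10+ (replicates 1 to 5), 3 of cells sorted as IL-10- (replicates 2, 3 and 5) and 2 of total B cells. The treatment given for every sample was 5 h with LPS, a Toll-like receptor 4 ligand, at 10 µg/ml, the protein kinase C activator PMA at 50 ng/ml and the calcium ionophore ionomycin at 500 ng/ml. That text is shared by all samples, so whether total B cells were treated in the same way rests on it alone. Cells were split by whether they secreted IL-10, with a secretion assay kit, and then flow-sorted for purity. The labels do not say whether replicates were separate mice. The tests therefore weigh differences against the spread of these arrays, and that spread may be technical. No age is given for the animals.

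A naive or germinal centre B cell keeps its identity through Pax5, Ebf1, Bach2, Bcl6, Irf8 and Spib, of which Pax5, Bach2 and Bcl6 hold down the plasma cell programme. Prdm1 (also called Blimp-1), Irf4 and Xbp1 drive the change to an antibody-secreting plasma cell, and Prdm1 and Bcl6 repress each other's genes. Pou2af1 is a coactivator of octamer-binding factors and acts in B cells and plasma cells.

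Levels are given as normalised log2 intensity, in which 1 unit is a doubling, and can be compared between arrays for a probe but not between probes. Each array detected between 13910 and 15610 probes. Il10 itself, the gene the sort was built on, had a level of 13.18 in IL-10+, 7.75 in IL-10- and 10.26 in total B cells (group means). The number of arrays limits the precision. Between 21 and 63 beads stood behind each level of the tested probes, and the error between beads was 0.0302 to 0.152 on the log2 scale, below most spreads between arrays.

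Between IL-10+ and IL-10- cells, 4 of the 10 genes passed the test: Prdm1 and Xbp1 rose and Bcl6 and Irf8 fell in the IL-10+ fraction. All IL-10+ arrays read lower than all IL-10- arrays for Irf4, which missed the threshold, and Pax5, Bach2, Spib, Ebf1 and Pou2af1 did not pass. A gene passed where its adjusted p, from limma with Benjamini-Hochberg adjustment over all 11185 genes, was under 0.05. Of all genes tested 18.1% passed, 9.12% as higher and 9.01% as lower in IL-10+ cells. For 5 of the 10 genes the arrays of both groups did not overlap, against 24.5% of all genes, and 5 had an unadjusted p under 0.05, against 33% of all genes. The median log2 difference was -0.07 over the 10 genes and -0.03 over all genes.

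**Figure D1:**
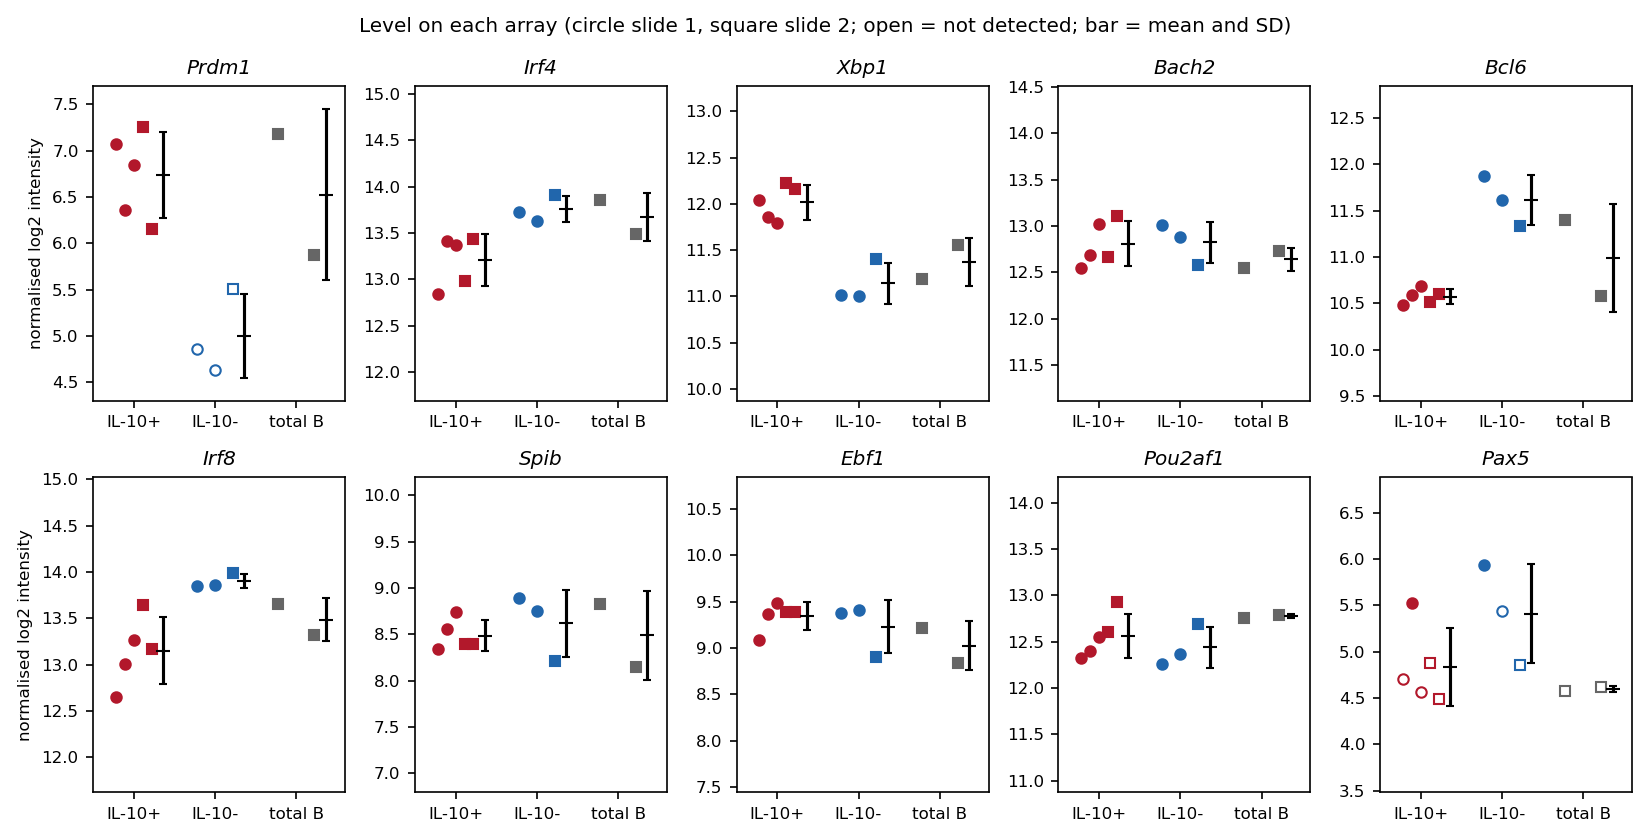
Normalised log2 intensity (vertical axes, each panel with its own start but the same span) of the 10 factors on each array, by group (horizontal axes). Circles are slide 1 and squares slide 2, open symbols were not detected, and bars are the group mean and SD (n = 5, 3 and 2). Prdm1 is undetected on the 3 IL-10- arrays, and the 5 IL-10+ arrays of Bcl6 lie between 10.48 and 10.69.

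Prdm1 encodes the zinc finger repressor that closes the mature B cell programme, and lies on chromosome 10 (chr10:44437174-44528558, GRCm38.p6). Its brighter probe read 7.07, 6.36, 6.84, 7.25 and 6.15 on IL-10+ replicates 1 to 5. On IL-10- replicates 2, 3 and 5 it read 4.86, 4.63 and 5.51, and none of these 3 arrays detected it. It read 7.18 and 5.87 on the total B arrays. The lowest IL-10+ array thus lay above the highest IL-10- array, while the total B arrays fell inside or just below the IL-10+ range. Group means were 6.74 ± 0.47 (SD, n = 5) in IL-10+ and 5.00 ± 0.45 (SD, n = 3) in IL-10- cells. The log2 difference of 1.73, which takes the undetected IL-10- levels as read, passed (limma, adjusted p = 0.00696). Since the IL-10- level is only a bound, the fold between these background-corrected group means is given as at least 2.02 higher in IL-10+ cells. Blocking on the replicate number gave a log2 difference of 1.45 and an adjusted p of 0.0565, which does not pass. Without background correction the log2 difference was 0.57 and passed (adjusted p = 0.0167), against 1.73 with it. The second Prdm1 probe was detected on 1 of 10 arrays and was not tested. It read 4.82 to 5.49 on IL-10+ arrays, 4.43 to 4.66 on IL-10- arrays and 4.61 and 4.69 on total B arrays.

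Xbp1 encodes the basic leucine zipper factor that the endoplasmic reticulum stress sensor Ire1 (gene Ern1) activates by splicing its RNA, and that expands the secretory machinery of plasma cells. It read 12.04, 11.86, 11.79, 12.23 and 12.16 on IL-10+ replicates 1 to 5. It read 11.02, 11.003 and 11.40 on the IL-10- arrays and 11.19 and 11.56 on the total B arrays. All 5 IL-10+ arrays lay above all 5 others. Xbp1 was 1.83-fold higher in IL-10+ than in IL-10- cells (limma, log2 difference 0.87 ± 0.16 SE, adjusted p = 0.00429). Spliced and unspliced forms were not told apart here. The gene lies at chr11:5520641-5525993 on the forward strand of GRCm38.p6. The RefSeq stretch of 250 bases before its start site, at chr11:5520391-5520640, is shown because Xbp1 differed from both other groups. None of the 6 motifs described below was in it.
Xbp1 promoter: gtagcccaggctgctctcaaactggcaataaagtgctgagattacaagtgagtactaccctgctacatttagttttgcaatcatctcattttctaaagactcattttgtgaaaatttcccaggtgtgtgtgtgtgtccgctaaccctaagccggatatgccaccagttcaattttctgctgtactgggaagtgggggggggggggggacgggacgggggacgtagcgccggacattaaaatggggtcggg

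Irf4 encodes an interferon regulatory factor that plasma cells need at a high level and that activated B cells also make. It read 12.84, 13.41, 13.37, 12.98 and 13.44 on IL-10+ replicates 1 to 5. It read 13.73, 13.63 and 13.91 on the IL-10- arrays and 13.86 and 13.49 on the total B arrays. Every IL-10+ array was below every array of the other 2 groups, in the direction opposite to Prdm1 and Xbp1. The log2 difference from IL-10- cells was -0.55 (95% interval -0.93 to -0.17), with an adjusted p of 0.0502 in limma, just outside the threshold.

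Bcl6 encodes the repressor that maintains germinal centre B cells and represses Prdm1. It read 10.48, 10.59, 10.69, 10.51 and 10.60 on IL-10+ replicates 1 to 5. It read 11.88, 11.62 and 11.34 on the IL-10- arrays and 11.40 and 10.58 on the total B arrays. The IL-10+ arrays lay close together (10.57 ± 0.08, SD, n = 5), all below the IL-10- arrays (11.61 ± 0.27, SD, n = 3), and total B replicate 2 lay inside the IL-10+ range. Bcl6 was 2.05-fold lower in IL-10+ than in IL-10- cells (limma, log2 difference -1.04 ± 0.19 SE, adjusted p = 0.00433).

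Irf8 encodes an interferon regulatory factor that pairs with the Ets factor PU.1 (gene Spi1) in B and myeloid cells. It read 12.65, 13.01, 13.27, 13.64 and 13.17 on IL-10+ replicates 1 to 5. It read 13.85, 13.86 and 13.99 on the IL-10- arrays and 13.65 and 13.32 on the total B arrays. All IL-10+ arrays lay below all IL-10- arrays, with means of 13.15 ± 0.36 (SD, n = 5) and 13.90 ± 0.08 (SD, n = 3). Irf8 was 1.69-fold lower in IL-10+ than in IL-10- cells (limma, log2 difference -0.75 ± 0.20 SE, adjusted p = 0.0240). The adjusted p rose to 0.0606, 0.0552 and 0.0599 without IL-10- replicate 2, 3 or 5, so that the call rested on having all 3.

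Bach2 encodes a repressor of Prdm1 that works with small Maf proteins. It read 12.55, 12.69, 13.02, 12.67 and 13.11 on IL-10+ replicates 1 to 5. It read 13.01, 12.88 and 12.58 on the IL-10- arrays and 12.55 and 12.73 on the total B arrays. The 3 groups overlapped, and the log2 difference between IL-10+ and IL-10- cells was -0.01 with a 95% interval of -0.37 to 0.35.

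Ebf1, which specifies the B lineage with Pax5, read 9.09, 9.37, 9.48, 9.39 and 9.39 on IL-10+ replicates 1 to 5. It read 9.38, 9.41 and 8.90 on the IL-10- arrays and 9.21 and 8.84 on the total B arrays. The groups overlapped, with a log2 difference of 0.12 between IL-10+ and IL-10- cells (95% interval -0.23 to 0.47). A dim probe filed under the older name EBF, a RefSeq synonym of Ebf1, lies outside the set chosen by symbol. It was detected on 5 of 10 arrays, with group means of 5.49 in IL-10+, 5.69 in IL-10- and 5.34 in total B cells.

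Pou2af1, the octamer coactivator, read 12.32, 12.40, 12.55, 12.60 and 12.93 on IL-10+ replicates 1 to 5. It read 12.26, 12.37 and 12.69 on the IL-10- arrays and 12.76 and 12.79 on the total B arrays. IL-10+ and IL-10- arrays overlapped, with a log2 difference of 0.12 (95% interval -0.23 to 0.47).

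Spib, an Ets factor of B cells close to PU.1, read 8.34, 8.56, 8.74, 8.39 and 8.40 by its brighter probe on IL-10+ replicates 1 to 5. It read 8.89, 8.75 and 8.21 on the IL-10- arrays and 8.83 and 8.15 on the total B arrays. The groups overlapped, with a log2 difference of -0.13 (95% interval -0.57 to 0.30). The second Spib probe was detected on the 2 total B arrays alone, at 5.54 and 6.03, against 5.04 to 5.29 on IL-10+ and 4.65 to 5.26 on IL-10- arrays. That probe entered the fit through the group in which it was brightest, so its differences from total B cells are given as values only. Both Spib probes gave differences between IL-10+ and IL-10- cells that did not pass.

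Pax5 encodes the paired domain factor that activates B cell genes and silences those of other lineages. Its probe was detected on IL-10+ replicate 2, at 5.53, and IL-10- replicate 2, at 5.93, and on no other array. The remaining IL-10+ arrays read 4.49 to 4.88, IL-10- replicates 3 and 5 read 5.44 and 4.86, and the total B arrays read 4.57 and 4.62. These levels are close to the lowest signal each array could tell from background, which lay between 5.392 and 5.777. The Pax5 message was thus barely measured by this probe in any group, and its log2 difference of -0.58 (95% interval -1.18 to 0.02) did not pass.

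**Figure D2:**
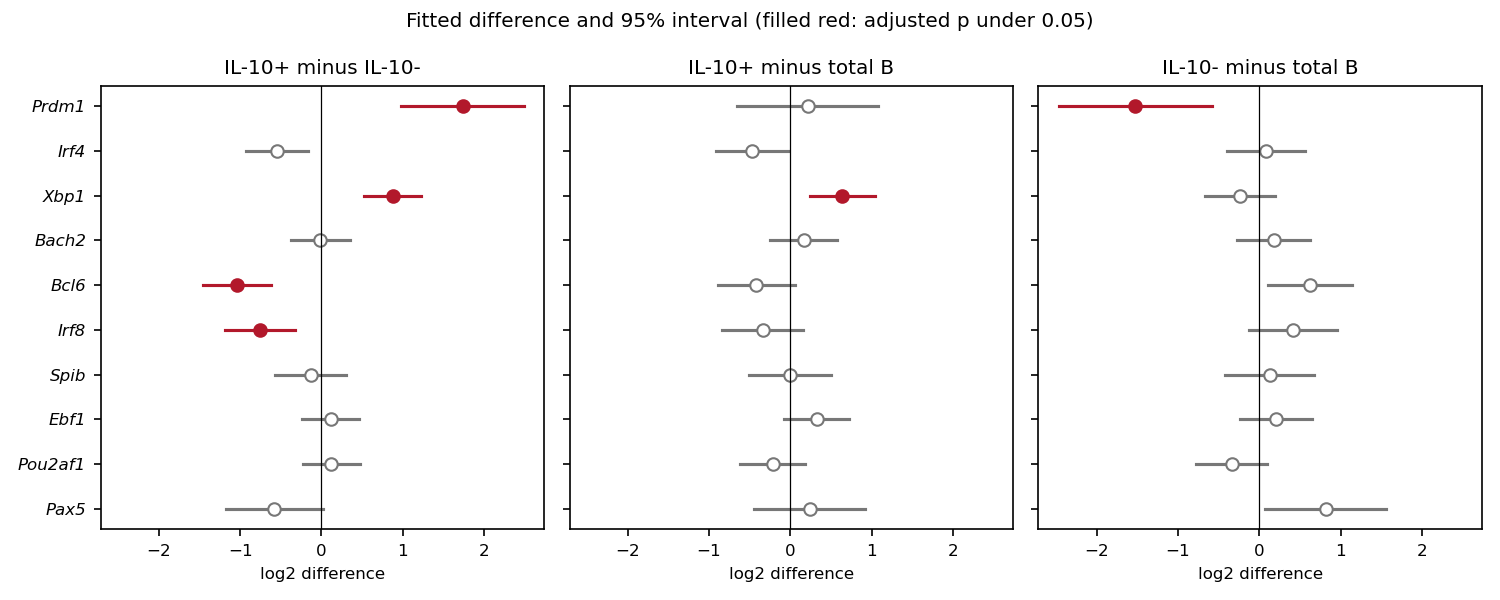
Fitted log2 difference (horizontal axes) of each factor (vertical axis) in the 3 comparisons, with 95% intervals from the limma fit of 10 arrays; filled red points passed at an adjusted p under 0.05. Prdm1, Xbp1, Bcl6 and Irf8 pass in the left panel, Xbp1 alone in the middle and Prdm1 alone on the right.

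**Figure D3:**
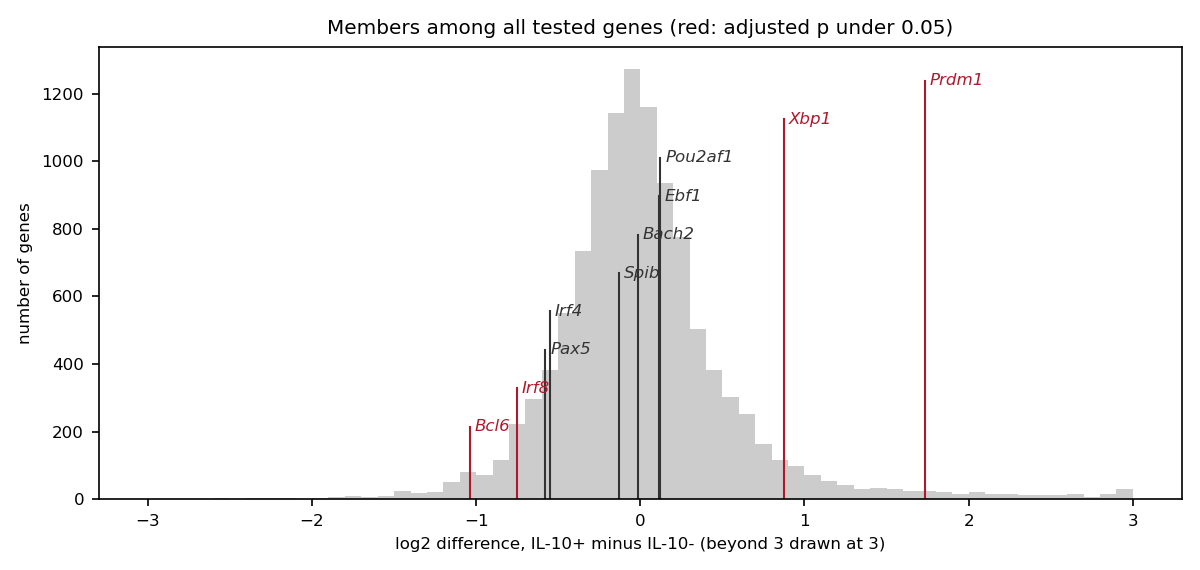
Histogram of the log2 difference between IL-10+ and IL-10- cells (horizontal axis) over 11185 genes (vertical axis, number of genes), with the 10 factors marked by lines whose heights only separate the labels. Red lines mark the 4 that passed, at -1.04, -0.75, 0.87 and 1.73.

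The log2 differences rest on how arrays were set to a common scale. When arrays were scaled by their medians over all probes, the median of all genes moved to 0.48, and 2440 genes were higher and 78 lower in IL-10+ cells, in place of 1020 and 1008. When scaled by their medians over the tested probes, the median of all genes was -0.14, with 790 higher and 1462 lower. Relative to the median of all genes, Prdm1 stood at 1.44, Xbp1 at 0.96, Bcl6 at -0.96, Irf8 at -0.88 and Irf4 at -0.65 under each of those scalings. Those scalings differ by a constant per array, so these values are equal by construction and do not test the scaling. Under the quantile normalization used elsewhere they were 1.77, 0.91, -1.01, -0.72 and -0.52 in that order. Under the scaling over all probes, Bcl6 at -0.48 (adjusted p = 0.203) and Irf8 at -0.40 (adjusted p = 0.306) did not pass, and Bach2 and Spib turned to 0.49 and 0.51, neither of which passed.

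Replicates 2, 3 and 5 exist in both sorted fractions, and the 3 pairs allow a comparison within a number. The IL-10+ array was higher than its partner in 3 of 3 pairs for Prdm1, by 0.64 in replicate 5 to 2.21 in replicate 3. It was higher in 3 of 3 for Xbp1, by 0.84, 0.78 and 0.76, an almost even difference. Bcl6 fell by 1.29, 0.92 and 0.74 in the same pairs. Irf8 fell by 0.84, 0.59 and 0.82. Irf4 was lower in 3 of 3 pairs, by 0.33, 0.26 and 0.47 on the log2 scale in replicates 2, 3 and 5. Pou2af1 was higher in 3 of 3, with differences of 0.14, 0.17 and 0.24. Pax5 was lower in 3 of 3, by 0.40, 0.89 and 0.37, at levels near background. Bach2, Spib and Ebf1 had pairs in both directions.

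**Figure D4:**
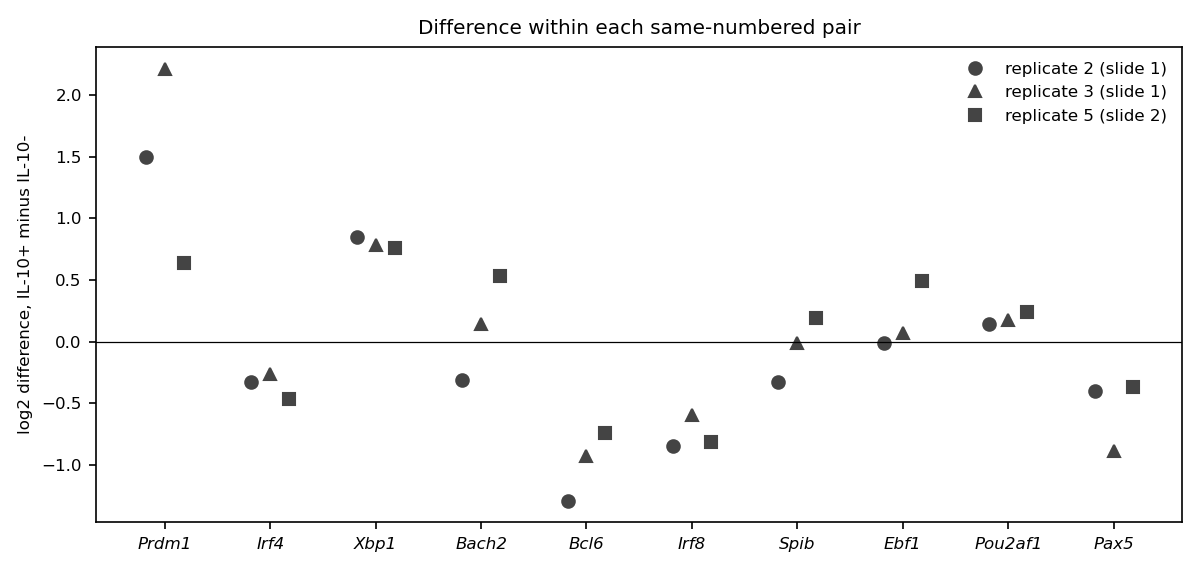
Log2 difference of the IL-10+ array from the IL-10- array of the same replicate number (vertical axis) for each factor (horizontal axis), by replicate. Xbp1 differs by 0.76 to 0.84 in the 3 pairs, whereas Prdm1 ranges from 0.64 to 2.21.

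Slide 1 held 3 IL-10+ and 2 IL-10- arrays, and slide 2 held 2 IL-10+ arrays, 1 IL-10- array and both total B arrays. Within slide 1 the log2 difference between IL-10+ and IL-10- cells was 2.01 for Prdm1, 0.89 for Xbp1, -1.16 for Bcl6, -0.88 for Irf8 and -0.48 for Irf4. Within slide 2 these differences were 1.19, 0.79, -0.78, -0.58 and -0.70 in that order. The sign was the same on both slides for these 5 genes and for Pou2af1, at 0.11 and 0.08, and Pax5, at -0.76 and -0.18. It differed between slides for Bach2, at -0.19 and 0.31, for Spib, at -0.27 and 0.18, and for Ebf1, at -0.08 and 0.50. On slide 2 alone, with 1 IL-10- array, none of the 10 genes passed in limma, and 2 had an unadjusted p under 0.05.

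Against total B cells, Xbp1 was the gene of the 10 that passed in IL-10+ cells, where it was 1.56-fold higher (limma, log2 difference 0.64 ± 0.18 SE, adjusted p = 0.0274). Of all genes 22.4% passed in this comparison, 12% as higher and 10.4% as lower. Irf4, at -0.47 (adjusted p = 0.114), and Xbp1 were the 2 whose arrays did not overlap, as in 43.1% of all genes, and the same 2 had an unadjusted p under 0.05, as had 35.9% of all genes. Within slide 2, which holds all total B arrays, the difference was 0.82 for Xbp1 and -0.47 for Irf4. The call for Xbp1 was lost without IL-10+ replicate 4 (adjusted p = 0.0541), IL-10+ replicate 5 (0.0548) or total B replicate 1 (0.246). Bcl6 stood at -0.42 (adjusted p = 0.187) and passed at -0.83 without total B replicate 2 (adjusted p = 0.0358). A fit that leaves 1 array in a group, here and on slide 2 alone, assumes that this array varies like those of the other groups. Prdm1 stood at 0.21 and at -0.44 without total B replicate 2, passing in neither.

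In IL-10- against total B cells, Prdm1 was the gene of the 10 that passed. The log2 difference was -1.52 (limma, adjusted p = 0.0405), and by group means Prdm1 was at least 1.74-fold lower in IL-10- cells. Of all genes 13.6% passed here, 7.51% as higher and 6.04% as lower. Arrays of 4 of the 10 genes did not overlap, against 42.7% of all genes, and 3 had an unadjusted p under 0.05, against 29.6%. The call for Prdm1 was lost without IL-10- replicate 2 (adjusted p = 0.0854), IL-10- replicate 3 (0.0996) or total B replicate 1 (0.316), and within slide 2 the log2 difference was -1.02. Bcl6 at 0.62 (adjusted p = 0.103) and Irf8 at 0.42 (adjusted p = 0.290) did not pass, although Bcl6 did at 1.03 without total B replicate 1 (adjusted p = 0.0397). Under median scaling over the tested probes Irf8 passed at 0.73 (adjusted p = 0.0498) and Prdm1 did not (adjusted p = 0.0740). When each probe was tested on its own, 16.7%, 20.6% and 13.2% of probes passed in the 3 comparisons. The probes that stand for the 10 genes had the calls of the gene fit. The second Spib probe, at a log2 difference of -0.77 in IL-10- against total B cells, entered the fit through the total B arrays. That difference is therefore a value only. All 3 comparisons share arrays, so their values are set side by side and not counted as separate evidence.

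Of 6 short motifs searched on both strands in the RefSeq promoters of GRCm38.p6, few were found near these genes. A promoter here is the window from 250 bases before to 50 bases after a start site, and the 10 genes had 13 such windows among 32851. The octamer ATTTGCAT, which Pou2af1 and its partners read, was in none of the 13 and in 1.74% of all. The Maf recognition core TGCTGANTC, part of the site that Bach2 and small Maf proteins read, was in none of the 13 and in 1.28% of all. A composite Ets and interferon regulatory factor site, GGAANNGAA, was in a window of Bach2 and a window of Bcl6, and in 8.24% of all. The interferon response core GAAANNGAA was in a window of Ebf1 and in 8.56% of all. The Xbp1 element TGACGTGG was in the window of Pou2af1 and in 0.676% of all, and the Bcl6 core TTCCTNGAA was in a window of Bcl6 itself and in 1.59% of all. These are matches of letters and were not tested as binding sites. The 5 matches are shown with up to 10 bases on either side, in the direction of the gene, with the matched letters in capitals. The Bach2 and Ebf1 matches lie on the opposite strand.
Bach2, Ets and interferon regulatory factor composite, chr4:32417409-32417434, forward strand: cgaacgggctTTCCCTTCCggtctag
Bcl6, Ets and interferon regulatory factor composite, chr16:23981293-23981321, reverse strand: cagaataacaGGAAAAGAAaaaaaaaaag
Bcl6, Bcl6 core, chr16:23981433-23981461, reverse strand: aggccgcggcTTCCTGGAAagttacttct
Ebf1, interferon response core, chr11:44617936-44617964, forward strand: tcgttggattTTCCCTTTCtttttttttc
Pou2af1, Xbp1 element, chr9:51213619-51213646, forward strand: gaggatgtgaTGACGTGGcccctctcag

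Genes that Prdm1 is known to repress were lower in IL-10+ than in IL-10- cells: of 5 listed genes 4 were measured, and 4 passed as lower and 0 as higher (limma, adjusted p of 0.000232 to 0.0243), with a median log2 difference of -1.08 over the list and -0.03 over all genes. For this and the other lists, the share of all genes that passed in this comparison was 9.12% as higher and 9.01% as lower. Gpr183, an oxysterol receptor that positions B cells, was 2.83-fold lower. Id3, an inhibitor of E proteins, was 2.08-fold lower. Ciita, the master switch of MHC class II genes, was 1.9-fold lower, and the growth regulator Myc was 2.14-fold lower. Scaling over all probes left 1 of these calls, and the call for Myc was lost without IL-10- replicate 2 or 3 or without IL-10+ replicate 3, 4 or 5.

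Genes that Pax5 is known to activate numbered 13, of which 10 were measured and 4 passed as lower and 0 as higher (adjusted p of 0.000142 to 0.0433), with a median of -0.74. Fcer2a, which encodes the IgE receptor CD23, was lower by 5.81-fold. Cr2, a complement receptor, was 2.65-fold lower, Ciita as above, and the adaptor Bank1 3.84-fold lower. Cd74, the invariant chain of MHC class II, was at -0.25 and among the 6 that did not pass. The calls for Cr2 and Ciita were lost under scaling over all probes, and that for Bank1 without IL-10- replicate 2 or 3 or IL-10+ replicate 1, 3, 4 or 5, at adjusted p values of 0.0543 to 0.166. Of 8 genes that Pax5 is known to repress, 4 were measured and 2 passed as higher (adjusted p of 0.000762 and 0.0119), with a median of 1.08. They were Emb, a cell adhesion glycoprotein, 3.28-fold higher, and Jchain, the joining chain of secreted IgM and IgA, 5.57-fold higher. Notch1 and Ccl3, the others measured, did not pass, and 1 gene of the list passed as lower without IL-10+ replicate 2. Against total B cells, 2 of the 4, Emb and Notch1, passed as higher and 1, Ccl3, as lower in IL-10+ cells, where Jchain did not pass. Of all genes 12% passed as higher and 10.4% as lower there. In IL-10- cells 0 of the 4 passed, against 13.6% of all genes.

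Plasma cell genes were 12, of which 9 were measured. In IL-10+ cells 6 passed as higher and 2 as lower, with a median log2 difference of 0.69. Mzb1, an endoplasmic reticulum chaperone of immunoglobulin assembly, was 3.87-fold higher and the prolyl isomerase Fkbp11 2.95-fold higher. Cd93, which helps keep plasma cells in bone marrow, was 2.08-fold lower, with adjusted p of 0.000556 to 0.00401 for these 3. Creb3l2, a membrane-bound transcription factor counted among the 6, was detected on 4 IL-10+ arrays and no other, so it entered the fit through the group in which it was brightest and its bound, at least 1.06-fold higher, is a description. Both lower calls were lost under scaling over all probes, where Cd93 was at -0.49 (adjusted p = 0.211). On slide 1 alone 3 passed as higher and 0 as lower, and 1 gene instead of 2 passed as lower with the replicate block and without IL-10- replicate 3 or 5 or IL-10+ replicate 4 or 5. Sdc1, which encodes the plasma cell surface marker CD138, had 3 probes and was detected on 0 of 10 arrays, as was Tnfrsf17, the receptor BCMA. Mzb1 and Jchain also serve as the plasma cell markers, and their summed linear level was 4685 to 6414 in IL-10+, 991 to 1888 in IL-10- and 752 to 1261 in total B cells. In bulk RNA, fewer cells of a type and less RNA per cell cannot be told apart.

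Of 18 genes of the unfolded protein response and secretory path that Xbp1 acts in, all were measured, and 3 passed as higher and 0 as lower in IL-10+ cells, with a median log2 difference of 0.21. Of all genes 18.1% passed in either direction and 9.12% as higher, with a median of -0.03. Counted in either direction, the calls of this list are near the share of all genes. Sdf2l1, a chaperone cofactor, was 1.84-fold higher. Pdia4, a disulphide isomerase, was 2.33-fold higher, and Edem1, which sorts misfolded glycoproteins for degradation, at least 2-fold higher (adjusted p of 0.00243 to 0.00739 for the 3). Most members, among them the chaperone Hspa5, at -0.08, and Ern1, at 0.09, did not pass. The 3 calls were lost on slide 1 alone, where the adjusted p lay between 0.0527 and 0.0613, and 7 passed under scaling over all probes.

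**Figure D5:**
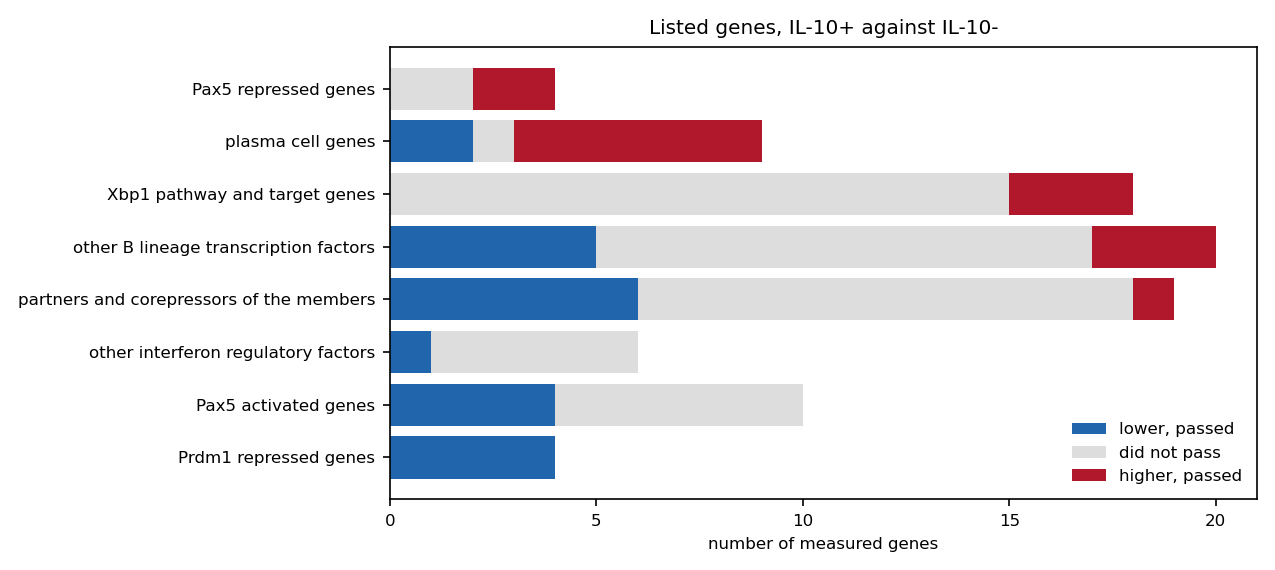
Number of measured genes (horizontal axis) of each gene list (vertical axis) that were lower and passed (blue), did not pass (grey) or were higher and passed (red) in IL-10+ against IL-10- cells. The bars of Prdm1 repressed genes (4 lower) and plasma cell genes (6 higher, 2 lower) have most of their length in colour.

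Other factors of the B lineage went both ways: of 23 listed, 20 were measured, 3 passed as higher and 5 as lower, with a median log2 difference of -0.14. Zbtb32, a repressor related to Bcl6 by its BTB and zinc finger domains, was 6.22-fold higher, and Id2, an inhibitor of E proteins, 2.08-fold higher. Foxp1, a forkhead factor of resting B cells, was 1.74-fold lower, as was Id3 by 2.08-fold, and the adjusted p of these 4 ran from 1.30e-05 to 0.00513. The lower calls went from 5 to 3 without IL-10- replicate 2 or 3 or IL-10+ replicate 3, 4 or 5, to 2 under scaling over all probes, where Foxp1 was at -0.26 (adjusted p = 0.489), and on slide 1 alone, and to 1 on slide 2 alone. Of the 6 other interferon regulatory factors measured (7 listed), Irf1 alone passed, a share near the 18.1% of all genes. It was 1.68-fold lower (limma, adjusted p = 0.0368), with 0 higher and a median of -0.35 over the list. That call was lost without any of IL-10+ replicates 1, 2, 3 and 5 or of the 3 IL-10- arrays, at adjusted p values of 0.0525 to 0.113.

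Partners and corepressors of the 10 factors were 23, of which 19 were measured, 1 passed as higher and 6 as lower, with a median of -0.34. Tle1, a Groucho corepressor, was 2.62-fold lower and Mafk, a small Maf partner of Bach2, 1.58-fold lower, beside Id2 and Id3 as above (adjusted p of 0.000101 for Tle1 and 0.0107 for Mafk). The number of lower calls was 3 without IL-10- replicate 2 or 3 or IL-10+ replicate 4 or 5. None of the 6 lower calls remained under scaling over all probes, at which 2 passed as higher. Spi1, the partner of Irf4 and Irf8, was at -0.40 and did not pass.

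Against total B cells, in IL-10- cells 0 of 9 plasma cell genes passed in limma, with 1 at an unadjusted p under 0.05, whereas in IL-10+ cells 4 passed as higher, with Mzb1 5.81-fold and Fkbp11 3.59-fold higher, and 2 as lower. Of all genes 22.4% passed in IL-10+ cells and 13.6% in IL-10- cells, each against total B cells. Prdm1 repressed genes were lower in IL-10+ cells in 3 of 4 cases, Gpr183 by 2.87-fold and Ciita by 2.70-fold, and higher in IL-10- cells in 1 of 4, Id3 at 2.19-fold. Pax5 activated genes were lower in 2 and higher in 1 of 10 in IL-10+ cells, with Ciita as above and Fcer2a 2.21-fold lower. They were higher in 4 and lower in 0 of 10 in IL-10- cells, with Fcer2a 2.62-fold and Ikzf3 3.24-fold higher. Ern1, which encodes Ire1, was 1.93-fold lower in IL-10+ and 2.06-fold lower in IL-10- than in total B cells, and Irf7 was at least 2.25-fold higher in IL-10- cells. Zbtb32 was 16.3-fold higher in IL-10+ and 2.63-fold higher in IL-10- cells. The adjusted p of the genes named here was at most 0.0471. In IL-10- cells the call for Irf7 was lost in 11 of 17 alternative runs. Those for Fcer2a, Ern1 and Id3 were lost in 5, 4 and 3 of 18, and that for Ikzf3 in 4 of 17. In IL-10+ cells the calls for Fcer2a and Ern1 were lost in 4 and 2 of 20.

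Markers of the cells a splenic B cell sort could hold were read beside these results. Of 6 B cell markers 5 were measured, and each was detected on all 10 arrays. Cd22 at 2.43-fold, Cd79b at 1.68-fold and Ms4a1 at 1.64-fold were lower in IL-10+ than in IL-10- cells, with adjusted p of 0.000419 to 0.0121. All 3 calls were lost under scaling over all probes, at log2 differences of -0.70 for Cd22, -0.18 for Cd79b and -0.07 for Ms4a1, and on slide 2 alone. The summed linear level of the list was 9555 to 11839 in IL-10+, 12004 to 14349 in IL-10- and 10218 to 12309 in total B cells. Cd3d, Cd3e, Cd4 and Cd8a of T cells, Ncr1, Klrb1c and Klrd1 of natural killer cells, Csf1r and Cd14 of macrophages, and Flt3, Itgax, Xcr1 and Clec9a of dendritic cells were detected on 0 arrays, as were S100a8, S100a9 and Mpo of neutrophils and Alas2 of erythroid cells. Mpeg1, a pore-forming protein of macrophages, was 2.98-fold higher in IL-10+ than in IL-10- cells, and Adgre1, an adhesion receptor of macrophages, was at -0.06 on the log2 scale and did not pass (adjusted p = 0.945). The third measured marker, Spic, was detected on 3 IL-10+ arrays, 0 IL-10- arrays and 1 total B array and has no bound above 1, so no difference is given for it. The summed level of the 3 measured macrophage markers was 2594 to 3925 in IL-10+, 849 to 1622 in IL-10- and 916 to 1320.4 in total B cells. Mpeg1 was detected on 10 arrays, Adgre1 on 5 and Spic on 4, so this sum rests mainly on Mpeg1. Siglech of plasmacytoid dendritic cells was 2.03-fold lower and the globin Hbb-b1 2.31-fold lower in IL-10+ cells, and both calls were lost under scaling over all probes. Zbtb46, the other measured dendritic cell marker, was detected on all 10 arrays and was at 0.01 (adjusted p = 0.972). Of the T cell genes, Cd3g was detected on 3 IL-10+ arrays and no other, so no difference is given for it, and Lat was at -0.46 and did not pass (adjusted p = 0.433). The summed level of the 2 measured T cell markers, of 7 listed, was 74.7 to 99.9 in IL-10+, 53.2 to 135 in IL-10- and 54.7 to 85.6 in total B cells. Prf1, the cytolytic protein perforin and the natural killer cell marker that was measured, was detected on all 10 arrays and did not pass, at -0.67. The part of these genes in the results on the 10 factors was not tested.

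The genes whose levels ran most like each factor over the 10 arrays are named by Pearson's r. Clone and provisional names, such as LOC, Gm or Rik names, were left out. This is a description, in which arrays share groups and slides. For Prdm1 they were Mycbp (r = 0.952), Cat (0.939) and C2cd2l (0.932). For Xbp1 they were Il1rn (0.973), Zscan12 (0.972) and Spata24 (0.965). For Bcl6 they were St6galnac3 (0.985), Spg7 (0.967) and Cpm (0.944). For Irf8 they were Dancr (0.948), Rapgef6 (0.943) and Dhx33 (0.941), and for Irf4 Phf20 (0.922), Bud23 (0.920) and Sun2 (0.913). The other 5 factors had Arhgap24, Lasp1 and Ss18 for Pou2af1, Ndufaf4, Fip1l1 and Uhrf1bp1l for Ebf1, Ptbp2, Tmem63b and Ythdc1 for Spib, Bcl2a1c, Ranbp3 and Ddx6 for Bach2, and Cd55, Wasf2 and Cd84 for Pax5. The Pax5 probe was detected on IL-10+ replicate 2 and IL-10- replicate 2 only, so the genes named for it rest on levels near background.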

How the data were processed

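The series gave 10 arrays. The deposited table holds mean bead intensity on a linear scale, with no normalization, exported from GenomeStudio 1.9.0 per the file headers and the submitters' processing notes, with bead numbers and SDs. The deposited detection score grows with brightness and was subtracted from 1 to obtain a detection p. A second table of processed values was not used, because its probe names could not be paired.

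Intensities were background-corrected and quantile normalized with neqc (limma 3.58.1, R 4.3.3, offset 16). Probes were kept if their detection p was below 0.01 on 2 or more arrays, and the probe with the highest mean stood for a gene. Of 30854 names, 16223 equalled a RefSeq symbol and 5706 a synonym. One limma fit of all 10 arrays (7 residual degrees of freedom, 10.6 after moderation) gave two-sided tests with Benjamini-Hochberg adjustment over 11185 genes. Where no array of a group detected a probe, "at least" folds set the bright group's mean against the higher, on each array of the dim group, of the lowest detected signal and the probe's own. An adjusted p given beside such a fold tests the fitted log2 difference and not the bound.

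The factors and gene lists were chosen with earlier results of these data known. Text names all 10 factors, Il10, up to 4 passing genes per list with the smallest p (2 against total B cells) and the 3 most similar genes per factor. Clone and provisional names were left out of those similar genes. Cd74, Hspa5, Ern1 and Spi1, where they did not pass, and markers outside that rule were named after their values were seen. So were Notch1, and Jchain against total B cells. Deviations from group means correlated between IL-10+ and IL-10- arrays of equal number at 0.348, 0.238 and 0.319 for replicates 2, 3 and 5 over genes. All 3 exceed 0.1. The numbers were treated as pairs in the comparison within a number and in the replicate block, while the fit behind the calls used no pairing. Each pair also shares a slide, and IL-10+ replicate 4 with IL-10- replicate 5, which share a slide only, correlated at 0.276. That is above the 0.238 of replicate 3, so a shared number cannot be told apart from a shared slide. The scripts were tested on simulated data.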

Additional observations from a re-analysis of the deposited data

How the results depend on the processing

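Values are log2 differences. Between IL-10+ and IL-10- cells, Prdm1, Xbp1 and Bcl6 kept their direction in every alternative run, and so did Irf8, Irf4, Pax5 and Pou2af1, while Prdm1 ranged from 0.57 without background correction to 2.01. Scaling by medians over all probes left 2 of the 10 factors past the threshold, with Bcl6 at -0.48 and Irf8 at -0.40 losing their calls and Bach2 and Spib turning to 0.49 and 0.51. Slide 1 alone gave 749 genes, Irf8 at -0.88 without a call and Ebf1 at -0.082. Slide 2 alone gave 617 genes and 0 of the 10 factors (2 at an unadjusted p under 0.05), with Prdm1 at 1.19, Xbp1 at 0.79, Bcl6 at -0.78 and Irf8 at -0.58, and Bach2 and Spib turned to 0.31 and 0.18. The replicate block put Prdm1 at 1.45 without a call and Bach2 at 0.12, gave 1536 genes and changed no other call among the 10 factors or the named list genes. The mean of a gene's probes turned Spib to 0.022 and Ebf1 to -0.044. Irf4 gained a call under 6 settings: no background correction (-0.54), offset 50 (-0.55), scaling over the tested probes (-0.80), detection on all arrays, the mean of probes and eBayes with trend and robust settings (-0.55 in each of these 3). Fewer arrays enter the fits by slide and the fits without an array, and for the other changes the cause was not tested.

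Leaving out 1 array at a time gave 1255 to 2020 genes (1255 without IL-10- replicate 2), with Irf8 at -0.88 to -0.63, Bach2 at -0.14 to 0.079, Ebf1 at -0.049 to 0.21, Spib at -0.34 to 0.0048 and Pax5 at -0.85 to -0.32, which passed without IL-10+ replicate 2. Against total B cells it gave 1015 to 2391 genes and 0 to 2 factors in IL-10+ cells, with Prdm1 at -0.44 to 0.87 and Spib at -0.34 to 0.34. It gave 398 to 1551 genes and 0 to 2 factors in IL-10- cells, with Irf4 at -0.11 to 0.27 and Spib at -0.21 to 0.47. The lowest gene counts, 1015 and 398, came without total B replicate 1, and those without total B replicate 2 were 1272 and 506.

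In IL-10+ against total B cells, scaling over all probes gave 1314 genes and 0 factors (1 at an unadjusted p under 0.05), with Spib at 0.23 and Pou2af1 at 0.085, and Pax5 turned to -0.016 under scaling over the tested probes and -0.031 with slide as a block. In IL-10- against total B cells, 599 genes passed under scaling over all probes, with Bach2 at -0.013, Spib at -0.27 and Ebf1 at -0.15, and 430 passed in a fit of those groups alone. There 0 factors passed without background correction, with no filter, with detection on all arrays (which removes Prdm1 before the test), with slide as a block, on slide 2 alone and with those groups alone, with 0 to 3 at an unadjusted p under 0.05. Scaling over the tested probes exchanged the call for Prdm1, at -1.13, for one for Irf8, at 0.73. Slide 2 alone put Xbp1 at 0.026, Bach2 at -0.066, Spib at -0.28 and Ebf1 at -0.12, and Spib was at -0.32 by the mean of probes and -0.083 with slide as a block. Of 61 differences of named list genes, 15 kept their call throughout, 46 lost or gained it somewhere and 0 reversed. The authors' processed values were not run as an alternative, and no replicate block was run against total B cells, whose numbers pair with no sorted array. Pax5, the second Prdm1 probe and the second Spib probe are limited by signal over background.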
